A study of Homo sapiens with 15 samples.

Results

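The mismatch repair genes described here are MSH6, MSH3, PMS1, MLH3 and PMS2, 5 of the 20090 protein-coding genes of the annotation used. Each was chosen by name and taken as the 1 kb windows whose midpoint lies in its gene body on hg19. The windows within 250 kb on either side of the body served as a measure of local copy number. The 5 gene bodies held 462 of the 3373681 windows outside chromosome Y. PMS2 is described apart from the other 4, because parts of it stand almost unchanged elsewhere in the genome.

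Reads came from Pt-exo-seq, in which exonucleases digest sheared DNA until a platinum adduct stops them, the platinum is removed and the remaining end is sequenced. The libraries were made from PEO1 and PEO4, established ovarian cancer cell lines from the same patient, isolated before and after the tumour became resistant in the clinic. PEO1 is labelled sensitive and PEO4 resistant to platinum. There were 3 libraries in each of 5 groups: untreated PEO1, PEO1 with 16 µM cisplatin, untreated PEO4, PEO4 with 16 µM cisplatin and PEO4 with 32 µM cisplatin. Treatment lasted 5 h, and the doses of 16 µM in PEO1 and 32 µM in PEO4 were chosen by the study to load similar amounts of platinum on DNA. Each line is a single model of its state, and neither the labels nor the methods say whether the replicates were separate cultures, so the p-values measure the spread between these libraries only. The libraries held 27.7 to 56.6 M counts, and 14.1% to 29.7% of windows had no read in a given library. A fragment without an adduct can survive digestion, so untreated libraries carry background reads that follow copy number and mappability.

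Mismatch repair removes bases that polymerases paired wrongly and small loops left by slippage. MutS proteins recognise the mismatch, MutL proteins are recruited to it, and exonuclease, clamp, clamp loader and polymerase then remove and resynthesise the strand. The pathway also binds cisplatin adducts on guanine pairs without repairing them, and its loss is a known route to cisplatin tolerance. The present libraries hold DNA only. They show how many reads fell on these genes and say nothing of their expression or repair activity.

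Cisplatin binds mainly neighbouring guanines on 1 strand, so GG, and CC on the opposite strand, are the letters that matter for this assay. The sequence below shows such sites in a stretch of PMS1. It is the 100 bases richest in GG and CC, outside annotated exons, within the window of highest mean count. It is from GRCh37, 5′ to 3′ on the strand of the gene, with GG and CC in capitals.
PMS1, chr2:190678943-190679042: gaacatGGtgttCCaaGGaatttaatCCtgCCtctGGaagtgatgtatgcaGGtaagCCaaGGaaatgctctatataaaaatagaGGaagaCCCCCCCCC

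GG or CC made up 18.2% of the dinucleotide positions in this stretch, which was picked for being rich in them. It does not show where in the window the reads lay. Over the whole gene bodies the shares were 11.8% in MSH6, 8.99% in MSH3, 8.32% in PMS1 and 10.3% in MLH3, against a median of 11.9% over the 16862 genes tested. PMS1 and MSH3 were thus poor in the cisplatin target, at the percentiles 8.9 and 16.8 of those genes. Their GC contents of 36.7% and 38.0% were also low, against a median of 44.2%.

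The PMS1 window that holds this stretch lies 29.8 kb from the transcript start and held 9 to 60 raw counts over the 15 libraries. Single windows are therefore not compared further, and the results rest on sums over whole genes.

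MSH6 is the MutS partner specialised for single mismatches and small loops. It lies on chromosome 2 from 48010284 to 48034092, plus strand, is 23.8 kb long and held 26 windows. FBXO11, a neighbouring gene, overlapped 74.1% of this body, and reads there cannot be assigned to either gene alone. All levels below are sums of reads over the gene body, scaled to a library of 33.1 M counts. The edgeR fits given later also use a normalisation factor per library (TMM, 0.935 to 1.065). Their log2 differences are therefore not ratios of these scaled levels. Untreated PEO1 gave 373, 281 and 345 scaled reads, PEO1 at 16 µM gave 370, 316 and 363. Untreated PEO4 gave 270, 302 and 452, PEO4 at 16 µM gave 261, 258 and 332, and PEO4 at 32 µM gave 349, 257 and 371. All 5 groups overlapped, and the highest library, untreated PEO4 replicate 3, stood apart from the other 2 of its group.

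MSH3 is the MutS partner specialised for larger insertion and deletion loops. It lies on chromosome 5 from 79950471 to 80172634, plus strand, and with 222.2 kb and 247 windows it is longer than 93.7% of the genes tested. Untreated PEO1 gave 2846, 3160 and 2876 scaled reads, and PEO1 at 16 µM gave 2642, 3100 and 3185. Untreated PEO4 gave 2784, 2849 and 2584, PEO4 at 16 µM gave 3214, 2771 and 2797, and PEO4 at 32 µM gave 2892, 2895 and 3095. The 3 libraries of PEO4 at 32 µM were all above the 3 untreated PEO4 libraries, and all other groups compared here overlapped.

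PMS1 is a MutL protein whose part in human mismatch repair is less well defined than that of its relatives. It lies on chromosome 2 from 190649176 to 190742355, plus strand, over 93.2 kb and 104 windows. Untreated PEO1 gave 1521, 1386 and 1251 scaled reads, and PEO1 at 16 µM gave 1064, 1292 and 1475. Untreated PEO4 gave 1139, 1336 and 1382, PEO4 at 16 µM gave 1468, 1312 and 1268, and PEO4 at 32 µM gave 1331, 1538 and 1154. The groups overlapped in every comparison.

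MLH3 is a MutL protein with an endonuclease domain, best known for its role in meiotic crossing-over. It lies on chromosome 14 from 75480478 to 75518170, minus strand, over 37.7 kb and 42 windows. Untreated PEO1 gave 620, 548 and 558 scaled reads, and PEO1 at 16 µM gave 546, 489 and 528. Untreated PEO4 gave 558, 504 and 419, PEO4 at 16 µM gave 404, 543 and 482, and PEO4 at 32 µM gave 548, 442 and 508. In PEO1 every treated library was below every untreated one, though the nearest pair were only 546 and 548. The 3 PEO4 groups overlapped with each other, and untreated PEO4 overlapped with untreated PEO1.

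**Figure D1:**
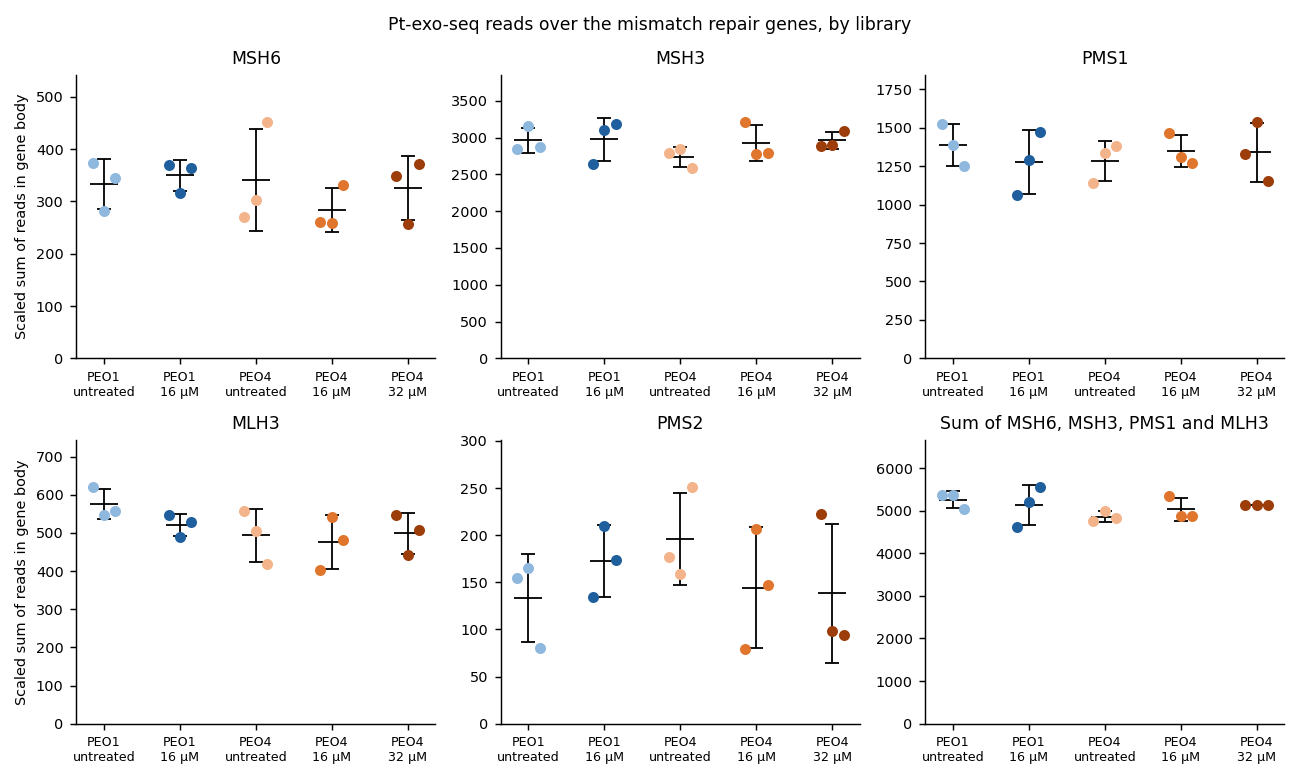
Scaled reads in each gene body (vertical axis, reads per library of 33.1 M counts) for the 5 groups, with 1 point per library and bars for the mean ± SD of 3 libraries. The sum of MSH6, MSH3, PMS1 and MLH3 stayed between 4621 and 5551, while PMS2 ranged from 79.0 to 251.

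Per window, the 4 genes were alike. The mean level over the 15 libraries was 12.6 scaled reads per window for MSH6, 11.8 for MSH3, 12.8 for PMS1 and 12.2 for MLH3, against a median of 11.9 over all genes tested. They stood at the percentiles 62.7, 47.6, 66.4 and 55.8 of those genes. MSH3, the longest gene, varied least between replicates and MSH6, the shortest, varied most of these 4. The coefficient of variation within groups was 6.97% for MSH3, 12.0% for PMS1, 11.0% for MLH3 and 18.1% for MSH6. Counting error alone would give 1.85%, 2.74%, 4.41% and 5.53%, so the spread between replicates exceeded counting error in each. These counting errors assume independent reads, and neighbouring windows share 100 bases and therefore some reads.

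The first comparison asks whether the resistant and the sensitive line already differ at these genes without drug. None of the 5 was called. The edgeR quasi-likelihood test gave adjusted p-values (Benjamini-Hochberg over all 16862 genes) from 0.135 for MLH3 to 0.889 for MSH6. Of all genes tested, 21.7% were called between the untreated lines, 12.9% higher in PEO4 and 8.75% lower. With a GC correction per library the calls were 1854 higher and 2012 lower, against 2178 and 1476 without it. DESeq2 and limma called none of the 5 either. The untreated levels of each gene overlapped between the lines (0 of 5 did not), while 40.2% of genes tested did not overlap.

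MLH3 had the lowest unadjusted p-value. Its level was 494 ± 70.1 scaled reads (SD, n = 3) in untreated PEO4 and 575 ± 38.9 in untreated PEO1. With TMM factors the edgeR log2 difference was -0.30 ± 0.14 (SE). The unadjusted edgeR p was 0.0405 and the 95% interval ran from -0.58 to -0.01. The difference was -0.21 without untreated PEO1 replicate 1 and -0.19 without untreated PEO4 replicate 3. An unadjusted edgeR p under 0.05 was common between the untreated lines, at 31.9% of all genes tested. MLH3 was the only 1 of the 5 under it. MSH3 differed by -0.18 (interval -0.41 to 0.04, edgeR adjusted p = 0.248) and PMS1 by -0.19 (-0.48 to 0.11, edgeR adjusted p = 0.394). MSH6 differed by -0.05, with an interval from -0.44 to 0.34 that allows a change of either sign. With the GC correction the differences of MSH3 and PMS1 were -0.06 and -0.05, where the median over all genes was -0.081.

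The flanks place these values against the copy number around each gene. In untreated PEO4 against untreated PEO1 the log2 difference in the flanks was 0.03 for MLH3, -0.14 for MSH3, -0.01 for MSH6, -0.03 for PMS1 and 0.11 for PMS2. None passed the adjusted limit in edgeR, and none did at an unadjusted p under 0.05. Of the 20055 flanks tested, 34.4% were called, 20.0% higher in PEO4 and 14.4% lower. The 95% intervals were narrow at MSH6, from -0.09 to 0.08, and at MLH3, from -0.06 to 0.11. At PMS1 the interval ran from -0.28 to 0.22. At MSH3 the difference ran from -0.18 to -0.04 over the alternatives, with an edgeR adjusted p of 0.0588 for flanks of 100 kb. No difference in flank read level between the lines was thus called around the 5 genes. Flanks of neighbouring genes overlap, so the 34.4% does not count independent regions, and whether the 5 differ from it was not tested.

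Each flank has 2 sides, and single sides could differ where their sum was not called. Of the 10 sides around the 5 genes, 4 had untreated groups that did not overlap, against 56.6% of the 40040 sides of all genes, so sides of this kind were not particular to these genes. Untreated PEO4 was higher upstream of PMS1, of MLH3 (11.9 to 12.6 scaled reads per window in PEO1 and 13.0 to 13.8 in PEO4) and of PMS2 (6.22 to 6.84 and 6.94 to 7.59). It was lower downstream of MSH3 (12.4 to 13.1 and 11.6 to 12.3). Upstream of PMS1, untreated PEO1 held 9.94 ± 0.271 scaled reads per window and untreated PEO4 held 11.4 ± 0.283 (SD, n = 3), and the libraries did not overlap (9.64 to 10.2 and 11.1 to 11.7). Downstream of PMS1 the values were 12.0 ± 0.808 and 11.2 ± 0.589, with overlap. In PEO1 at 16 µM the level upstream of PMS1 was 8.86 ± 0.413. In PEO4 it was 11.6 ± 0.9 at 16 µM and 12.8 ± 0.794 at 32 µM. Downstream of PMS1, PEO1 at 16 µM held 12.9 ± 1.28. PEO4 held 11.9 ± 1.17 there at 16 µM and 12.3 ± 0.58 at 32 µM. The sides were separated after the values had been seen and were not tested.

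**Figure D2:**
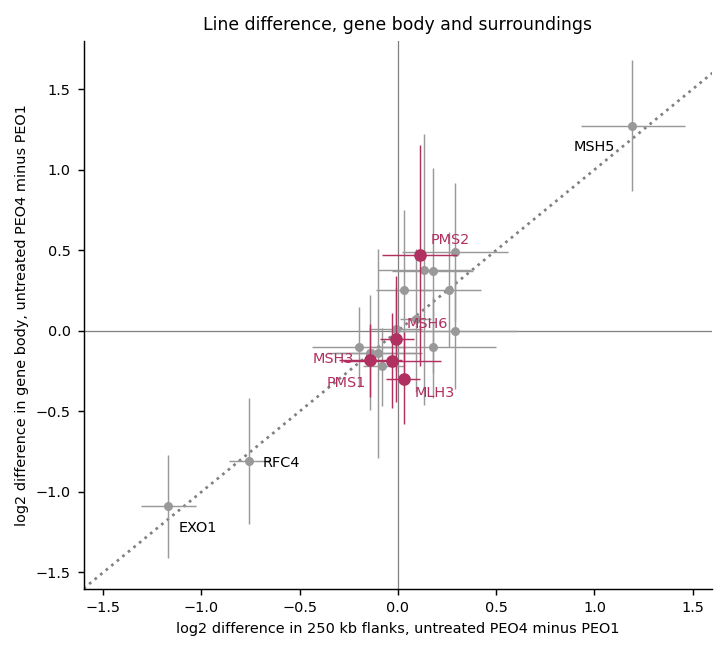
The log2 difference of untreated PEO4 minus untreated PEO1 in the gene body (vertical axis) against that in the flanks of 250 kb (horizontal axis), with 95% intervals from edgeR. The 5 mismatch repair genes (red) lie near 0 on the horizontal axis, while EXO1, RFC4 and MSH5 among the partner genes (grey) lie near the dotted line of equal differences.

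Relative to its own flank, the body of MLH3 was lower in untreated PEO4 by a log2 of -0.40 ± 0.14 (SE). The interval was -0.69 to -0.11 and the unadjusted edgeR p 0.00796, but the p adjusted over all genes was 0.53. The density ratio of body to flank (log2) was 0.11 ± 0.18 in untreated PEO1 and -0.22 ± 0.24 in untreated PEO4 (SD, n = 3), with libraries from -0.05 to 0.31 and from -0.49 to -0.04. The groups thus overlapped only at their edges. In this fit 0.0534% of genes were called, and none of the 5 was among them. The median over all genes in it was -0.065 and the 10th percentile -0.306. An unadjusted edgeR p under 0.05 was reached by 8.4% of them.

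MLH3 was also cut into 3 equal parts, although its body was not called. In the part farthest from the start, untreated PEO1 held 16.3 ± 2.33 scaled reads per window and untreated PEO4 held 11.6 ± 1.67. In the part nearest to the start the values were 10.9 ± 1.68 and 11.9 ± 1.91, and in the middle part 13.8 ± 2.62 and 11.8 ± 2.27 (SD, n = 3). The far part was also lower in PEO1 at 16 µM, with 11.0 ± 2.11, so untreated PEO1 had the highest mean of the 5 groups there. The near part went the other way, with 14.6 ± 1.89 in PEO1 at 16 µM, the highest mean of the 5 groups in that part. The middle part held 11.6 ± 1.84 in PEO1 at 16 µM. The 3 parts were described without a test.

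The second question is what cisplatin did to the read level over these genes in each line. Levels are relative to the reads of each library, so a rise in adducts over the whole genome would not show. In PEO1 at 16 µM against untreated, none of the 5 was called by edgeR, at an adjusted or an unadjusted limit, and neither DESeq2 nor limma called one. In all, 0.00593% of genes were called. This was 1 gene, LY6H, named after its values were seen, at a log2 change of 3.29 (edgeR adjusted p = 0.0366). The log2 changes were -0.19 ± 0.14 (SE) for MLH3, -0.16 ± 0.14 for PMS1, -0.03 ± 0.11 for MSH3 and 0.02 ± 0.19 for MSH6. MLH3 was the only one of the 5 whose groups did not overlap, and 8.93% of all genes tested did not overlap in this comparison.

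In PEO4 no member was called at either dose. At 16 µM against untreated, edgeR called none of the 5 and 0.0% of all genes, with 433 genes at an unadjusted p under 0.05 and none called by DESeq2 or limma. MSH3 changed by a log2 of 0.15 (interval -0.07 to 0.37), PMS1 by 0.12, MLH3 by -0.01 and MSH6 by -0.21 (-0.60 to 0.18). No member's groups were apart at this dose, against 10.2% of all genes. At 32 µM edgeR again called none of the 5 and 0.0% of genes, with 1122 at an unadjusted p under 0.05 and 1 called by DESeq2. MSH3 changed by 0.18 ± 0.11 (SE) in edgeR. Its scaled reads, without TMM factors, were 2739 ± 138 untreated and 2961 ± 116 at 32 µM (SD, n = 3).

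MSH3 was the only one of the 5 whose groups were apart at 32 µM, as were 13.7% of all genes. Its edgeR adjusted p was 0.716. Relative to its flank the change was 0.24 (interval 0.03 to 0.44), with an unadjusted p of 0.0248 and an edgeR adjusted p of 0.72. The median over all genes in that flank fit was 0.078, and 6.83% had an unadjusted edgeR p under 0.05. With the GC correction the change of MSH3 was 0.09, where the median over all genes was 0.061. PMS1 changed by 0.13, MLH3 by 0.08 and MSH6 by -0.00, and with the GC correction PMS1 was at -0.00 and MSH6 at 0.10.

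Between the doses in PEO4, the differences of 32 µM minus 16 µM were 0.03 for MSH3, 0.01 for PMS1, 0.09 for MLH3 and 0.21 for MSH6. The interval of MSH6 ran from -0.19 to 0.61, and those of the other 3 lay within -0.29 and 0.37. No gene of the 5 was called (0.0% of all genes, 430 at an unadjusted edgeR p under 0.05, none by DESeq2 or limma). The groups of all 5 overlapped, against 6.1% of genes that did not. A change in the share of reads on these bodies with the higher dose was not detected.

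**Figure D3:**
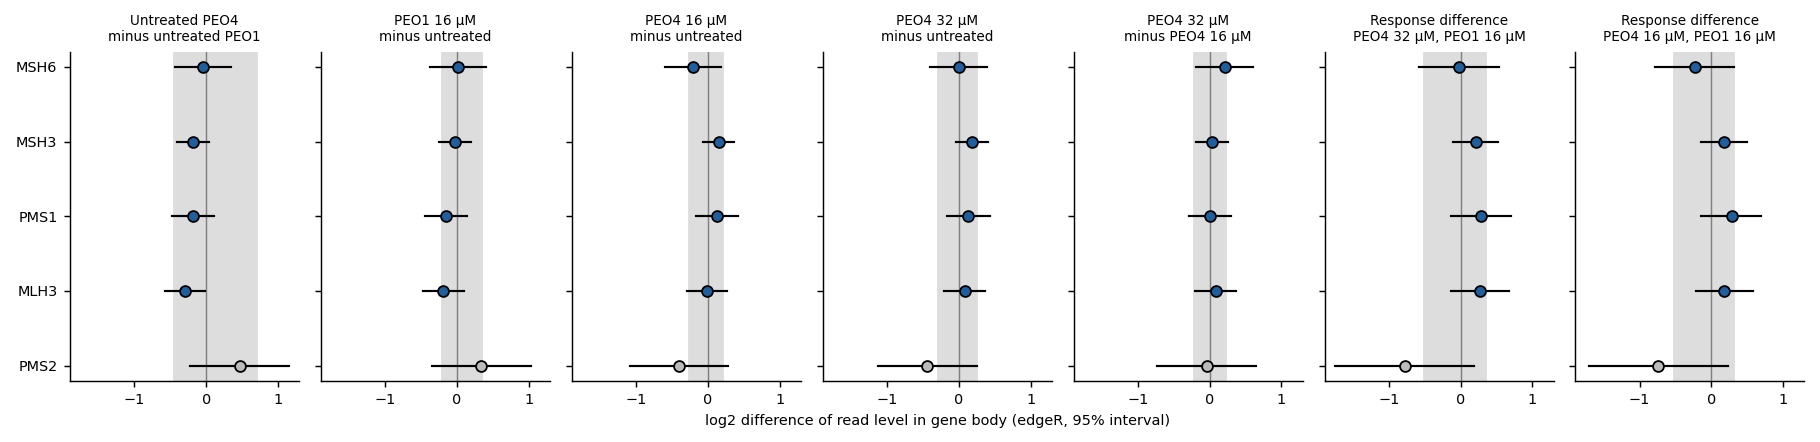
Log2 differences of the 5 genes in the 7 comparisons (points, edgeR, with 95% intervals), with PMS2 in grey. The shaded band runs from the 10th to the 90th percentile of all genes tested. MSH6, MSH3, PMS1 and MLH3 lie within it in all 7 comparisons, and PMS2 lies below it in 4.

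The third question is whether PEO4 responded differently from PEO1, taking each line's untreated level into account. At the doses of similar platinum load, the response of PEO4 at 32 µM minus that of PEO1 at 16 µM was 0.21 for MSH3 (interval -0.11 to 0.52), 0.29 for PMS1 (-0.13 to 0.70), 0.27 for MLH3 (-0.13 to 0.67) and -0.02 for MSH6 (-0.58 to 0.53). The edgeR adjusted p-values were 0.642 to 0.983. At the equal dose of 16 µM the values were 0.18, 0.28, 0.18 and -0.23 in the same order, with adjusted p-values from 0.757 to 0.832. No gene of the whole table passed in either comparison (0.0% called in both, 1351 and 1199 genes at an unadjusted edgeR p under 0.05). DESeq2 called 1 and 2 genes there and limma 0 and 2, none of them one of the 5. Over all genes tested the 10th and 90th percentiles of this difference were -0.51 and 0.35 at 32 against 16 µM.

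The 2 response comparisons share the PEO1 libraries and the untreated PEO4 libraries, so their likeness is no further evidence. MLH3 relative to its flank gave the smallest unadjusted p of the 5, 0.0282, for a response difference of 0.46 (interval 0.05 to 0.87) at 32 against 16 µM. Its edgeR adjusted p was 0.709. The same untreated libraries enter this value and the line difference of MLH3 above. Over all genes in that flank fit the median was 0.099 and the 90th percentile 0.423. An unadjusted edgeR p under 0.05 was reached by 6.9% of them.

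Base composition moved with the libraries. The slope of the read level on GC content ran from -0.296 log2 units per 10 percentage points of GC in untreated PEO1 replicate 1 to 0.279 in PEO1 16 µM replicate 1, and libraries of the same group differed in sign. MSH3 and PMS1 are AT-rich, and the part of the slope in their values was not tested. In untreated PEO1 replicate 1, before TMM factors, MSH3 was the lowest of its group (2846 scaled reads) and PMS1 the highest (1521). With the GC correction the response difference at 32 against 16 µM was 0.10 for MSH3, 0.14 for PMS1, 0.26 for MLH3 and 0.07 for MSH6. The median over all genes was then 0.098, with 10th and 90th percentiles of -0.206 and 0.426.

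Summed over MSH6, MSH3, PMS1 and MLH3, the untreated levels were 5360, 5375 and 5030 scaled reads in PEO1 and 4752, 4992 and 4837 in PEO4. The PEO4 libraries were all below those of PEO1, a log2 ratio of the means of -0.113. Groups that do not overlap were common between the untreated lines, at 40.2% of single genes. MSH3 supplied most of this sum. With the GC correction its edgeR difference went from -0.18 to -0.06 and that of PMS1 from -0.19 to -0.05. The median over all genes went from 0.003 to -0.081. Those edgeR values include TMM factors and the sum does not. With PMS2 included the ratio was -0.092, and the flanks of the 4 genes gave 0.039. In PEO1 at 16 µM the sums were 4621, 5198 and 5551, on both sides of the untreated level. In PEO4 they were 5346, 4884 and 4879 at 16 µM and 5121, 5131 and 5128 at 32 µM.

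Against the untreated mean of the same line, the log2 ratio of the sum was -0.037 in PEO1 at 16 µM. In PEO4 it was 0.051 at the lower dose and 0.077 at the higher. The difference between the lines in that response was 0.114 at 32 against 16 µM and 0.088 at the equal dose. The genes were chosen as a group, so no p-value is given for the sum. The 3 libraries at 32 µM lay closer together than counting error would give (a coefficient of variation of 0.102% against 1.4%), while the single genes within them did not.

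Around the transcript starts the counts were too low to resolve small changes. In 2 kb centred on the start, the scaled reads were 3.2 to 45.8 for MSH6, 6.73 to 68.2 for MSH3, 10.1 to 36.8 for PMS1 and 3.56 to 67.2 for MLH3. The highest value of MSH6, MSH3 and MLH3 each came from PEO1 16 µM replicate 1, the library with the steepest rise of reads with GC content. PMS2 fell under the minimum mean count of 10 and was not tested.

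None of the other 4 promoters was called in any of the 7 comparisons, nor did any reach an unadjusted edgeR p under 0.05. Of 18123 promoters, 0.497% were called between the untreated lines and 0.0% in each of the other 6 comparisons. In the untreated lines the log2 differences were -0.22 for MLH3, -0.16 for MSH3, 0.06 for MSH6 and -0.30 for PMS1. Their 95% intervals were wide, with that of PMS1 running from -1.48 to 0.88.

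PMS2 is the MutL partner whose endonuclease nicks the strand to be removed. It lies on chromosome 7 from 6010556 to 6048680, minus strand, over 38.1 kb and 43 windows. Of its 100-base stretches, the read length of this study, 23.5% stood at least once more in GRCh37 without a mismatch, against 0.86% of those of MSH3 and at most 0.0956% in the others. The copies lay in the pseudogene PMS2CL, also on chromosome 7 between 6774936 and 6791023, in a long non-coding RNA gene that spans it, and in small part in the pseudogene PMS2P2. A read from such a stretch cannot be assigned to 1 place. How reads with several equal alignments were handled is not given in the sources used here. The longest run of copied sequence in PMS2 was 1093 bases, and 100 bases from its middle are printed to show what such a read would look like, written as above.
PMS2, chr7:6013435-6013534, also at chr7:6790519-6790618 on the other strand: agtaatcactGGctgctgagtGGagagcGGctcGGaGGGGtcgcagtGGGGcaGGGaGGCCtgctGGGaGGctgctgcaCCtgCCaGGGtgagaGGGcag

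The level over PMS2 was low in every library. The mean was 3.65 scaled reads per window, at the percentile 0.51 of the genes tested, and 42.9% of its window values were 0, against 4.62% to 7.3% in the other 4 genes. The 16 windows without any copied stretch held 5.9 scaled reads each on average and lay within 20.0 kb of the start. The 27 windows with some copied sequence held 2.31, and the 11 windows that were over 50% copied held 0.318, with 90.9% of values at 0.

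The windows of PMS2 without copies, at 5.9 scaled reads, were also below the 11.8 to 12.8 of the other 4 genes, and the flanks of PMS2 held 5.52 scaled reads per window against 11.5 to 13.0 around the others. The flank was low on both sides and in both lines. Upstream it held 6.6 ± 0.333 in untreated PEO1 and 7.32 ± 0.338 in untreated PEO4, and downstream 4.09 ± 0.37 and 4.81 ± 0.454 (SD, n = 3). The base composition of PMS2 was near the middle of the genes tested. Its body held 45.3% GC (percentile 54.7) and 12.0% GG or CC (percentile 51.2). Body and flanks together held 45.9% GC, against 44.7% for MLH3. Copy number and mappability cannot be told apart in these libraries. Their parts in the low level, and that of base composition, were not tested.

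**Figure D4:**
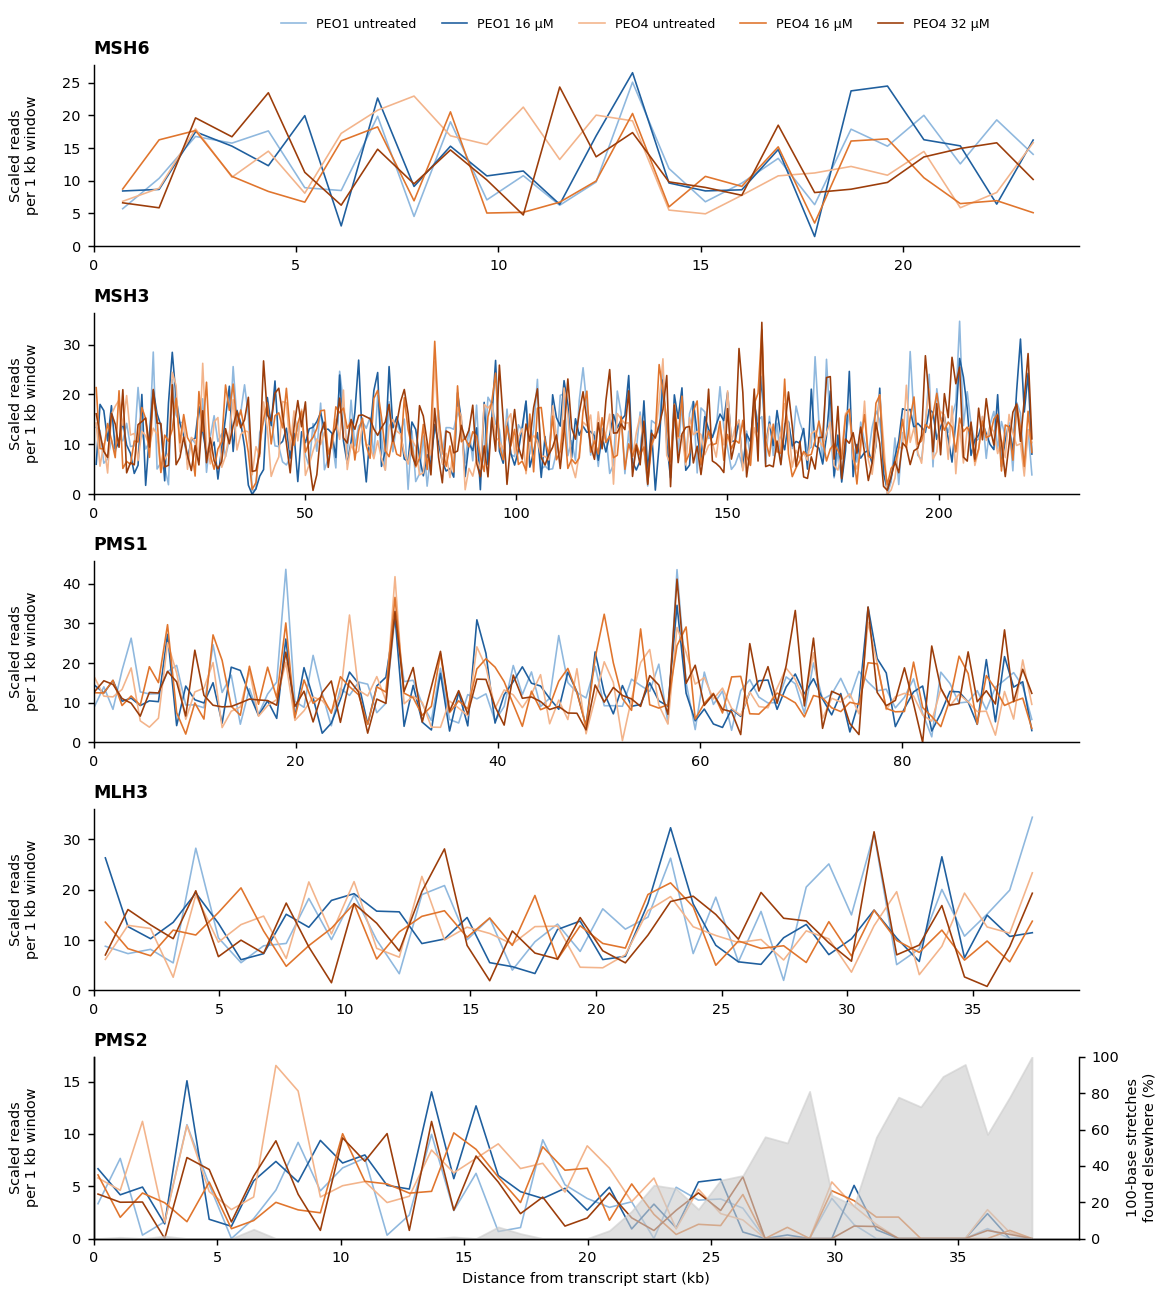
Mean scaled reads per 1 kb window (left axis) along each gene by distance from the transcript start, 1 line per group of 3 libraries. For PMS2 the grey area gives the percent of 100-base stretches found elsewhere in the genome (right axis), and the 11 windows where it exceeds 50% held 0.318 scaled reads on average.

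PMS2 was also the most variable of the 5. Untreated PEO1 gave 155, 165 and 79.8 scaled reads, and PEO1 at 16 µM gave 134, 210 and 174. Untreated PEO4 gave 177, 159 and 251, PEO4 at 16 µM gave 79.0, 207 and 147, and PEO4 at 32 µM gave 223, 97.9 and 93.8. All groups overlapped, with a coefficient of variation within groups of 37.7%. The flank of PMS2 varied by 12.2%, against 2.24% to 6.58% for the other flanks.

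Between the untreated lines PMS2 differed by a log2 of 0.47 ± 0.33 (SE), with an interval from -0.22 to 1.15 and an edgeR adjusted p of 0.349. With cisplatin it changed by 0.34 in PEO1, and in PEO4 by -0.40 at the lower and -0.44 at the higher dose. The response difference was -0.78 (interval -1.75 to 0.19, edgeR adjusted p = 0.616) at 32 against 16 µM and -0.74 (-1.70 to 0.23, adjusted p = 0.734) at the equal dose. It was opposite in sign to those of MSH3, PMS1 and MLH3, and its interval included 0. Single libraries moved these values by over 1.5 times. The line difference was 0.20 without untreated PEO1 replicate 3 and 0.26 without untreated PEO4 replicate 3, and the change in PEO1 was 0.07 without its untreated replicate 3. The change at 32 µM ran from -0.92, without replicate 1 of that dose, to -0.24, and the response difference from -1.25 to -0.51.

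Leaving out the windows with copied sequence, an alternative added after the data were seen, gave a line difference of 0.36 and response differences of -0.67 and -0.74. In those windows the untreated libraries held 99.5, 80.0 and 61.9 scaled reads in PEO1 and 99.7, 81.7 and 149 in PEO4. At 32 µM PEO4 gave 155, 53.7 and 54.6, so replicate 1 was far above the other 2. The same library had a GC slope of 0.212, against -0.255 and -0.157 in the other 2, and the part of base composition in the value was not tested.

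The partner genes of mismatch repair give the pathway around these 5. The list held 18 genes, of which 16 reached the minimum mean count of 50. They were the exonuclease EXO1, the clamp PCNA, the clamp loader subunits RFC1 to RFC5, the single-strand binding proteins RPA1 to RPA3, the polymerase subunits POLD1 to POLD4, the ligase LIG1, HMGB1 and the meiotic relatives MSH4 and MSH5. Between the untreated lines 1 was called higher in PEO4 and 2 were called lower, with a median log2 difference of 0.01 over the 16. Of all genes tested 21.7% were called, 12.9% higher and 8.75% lower, so 3 of 16 is near the share of all genes and says nothing particular of the pathway. In the other 6 comparisons edgeR called none, with none at an unadjusted p under 0.05, and DESeq2 and limma called none.

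EXO1, the exonuclease that removes the mismatched strand, gave 646, 557 and 592 scaled reads in untreated PEO1 and 272, 278 and 342 in untreated PEO4. The groups were far apart, at a log2 difference of -1.09 (edgeR adjusted p = 7.07e-06). Its flank differed by -1.17. MSH5, which acts with MSH4 in meiosis, gave 150, 175 and 134 in PEO1 and 356, 399 and 414 in PEO4, a difference of 1.27 (edgeR adjusted p = 1.8e-05), with 1.19 in the flank. RFC4, a clamp loader subunit, gave 389, 314 and 337 in PEO1 and 200, 197 and 227 in PEO4, a difference of -0.81 (edgeR adjusted p = 0.00188), with -0.76 in the flank.

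The flanks of all 18 partners were tested, and 2 were called higher and 3 lower in untreated PEO4, against 20.0% and 14.4% of all flanks. Beside the 3 above they were PCNA, at -1.10, whose own body was under the minimum count, and LIG1, at 0.26. The promoter of RFC4 was lower in PEO4 by -2.36 (edgeR adjusted p = 0.0394), the only partner promoter called, where 0.497% of all promoters were. Relative to their flanks edgeR called none of the 16 partner bodies between the untreated lines, with 2 (RFC2 and RPA1) at an unadjusted p under 0.05. The read level at EXO1, RFC4 and MSH5 thus differed between the lines together with the 250 kb on either side, whereas neither the body nor the flank of any of the 5 mismatch repair genes was called. Whether the lists differ was not tested.

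The genes on other chromosomes whose levels ran most like each member over the 15 libraries were found by Pearson correlation of log2 levels, among genes with a mean count of at least that of the member divided by 2. For MSH3 they were CAMKMT and ARMC8, both at r = 0.94. For PMS1 they were GTF2F2 and NOX4, both at 0.88, for MLH3 ZKSCAN2 (0.80) and CSNK2A2 (0.79), and for MSH6 GABRP (0.76) and LSM11 (0.74). For PMS2 they were DNMBP (0.84) and TTC31 (0.82). Each is the best of 2382 to 14595 candidates, and the libraries share depth and GC slope, so these values describe the libraries only.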

How the data were processed

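Pt-exo-seq reads were counted in 15 libraries of PEO1 and PEO4 cells, 3 per group, with groups and replicate numbers taken from the labels. According to their methods, the authors sequenced single 100-base reads, trimmed by BBDuk and placed on hg19 by bowtie2, then dropped blacklisted regions and removed duplicates with Picard (versions not given in the sources used here). The deposited values are raw read counts in 1 kb windows moved by 900 bp, 3439652 in all, not normalised. The submitters' processing notes name Bowtie2, Picard and hg19.

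Counts were summed over windows whose midpoint lay in the MANE Select (otherwise canonical) transcript of GENCODE release 44 on GRCh37, without chromosome Y. Genes with a mean count of at least 50 (promoters 10) were tested with the edgeR 4.0.16 quasi-likelihood F test in R 4.3.3, in 1 fit of 15 libraries and 5 groups with TMM factors, and p-values were adjusted by Benjamini-Hochberg with a limit of 0.05. For body against flank, the log flank count was an offset, whose own counting error is not in the p-value. A response difference is the log2 change of PEO4 over its untreated libraries minus that of PEO1. Alternatives used DESeq2 1.42.0, limma 3.58.1 (log2 ratios to the untreated mean), other filters, a GC correction per library from 100 kb bins, other gene definitions and each library left out. The fit was tested on simulated counts with 200 changed genes. PCR copies without molecular identifiers are not independent, and depth (27.7 to 56.6 M counts) covers counting error only. Named genes were the 5 members, the called partners of a list of 18 (or the 2 of smallest p) and the 2 genes most like each member. The members and lists were chosen with earlier results of these data known. The study's filter by ATAC-seq depth was not applied. Mismatch repair genes other than these 5 are not analysed here.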

Additional observations from a re-analysis of the deposited data

How the results depend on the processing

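No alternative called a mismatch repair gene. Over 770 values of the 5 genes under 30 alternatives the smallest adjusted p was 0.0588, for the flank of MSH3 with flanks of 100 kb. With the flank offset the log2 changes that changed sign were -0.07 for MSH6 and 0.04 for MSH3 in PEO1 at 16 µM, 0.05 for MLH3 in PEO4 at 16 µM, 0.11 for MSH6 and -0.02 for PMS1 in PEO4 at 32 µM, -0.08 for PMS1 and 0.04 for PMS2 between the PEO4 doses, and 0.18 for MSH6 in the response difference at 32 against 16 µM. With the GC correction, they were 0.10 for MSH6 and -0.00 for PMS1 in PEO4 at 32 µM, -0.05 for PMS1 and 0.02 for PMS2 between the doses, 0.07 for MSH6 in that response difference, and 0.01, 0.10, -0.04 and -0.00 in the flanks of MSH6, PMS1, MLH3 and PMS2 between the untreated lines. MSH6 in PEO4 at 32 µM also went to 0.01 with DESeq2 size factors, in DESeq2 and with only the groups compared, 0.00 without a filter, 0.03 with any overlap and 0.02 in limma. It was 0.01 between the untreated lines with the gene feature and 0.03 with flanks of 100 kb. PMS2 without copied windows gave 0.07 between the doses. The median over all genes also moved in PEO4 at 32 µM. It was -0.009 without either correction, 0.078 with the flank offset and 0.061 with the GC correction.

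The numbers of the replicates did not pair the libraries (same-number correlations of deviations from -0.499 to 0.413, 9 of 30 above 0.1). With the replicate block the calls between the untreated lines were 3359 in gene bodies and 5728 in flanks, and MSH6 in PEO4 at 32 µM was 0.00. With the block and the GC correction the sign changes were 0.10 for MSH6 and -0.01 for PMS1 in PEO4 at 32 µM, -0.05 for PMS1 and 0.03 for PMS2 between the doses and 0.07 for MSH6 in the response difference, with no call of the 5.

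Leaving out 1 library in turn changed the sign of these log2 changes. MSH6 ranged from -0.29 to 0.10 between the untreated lines (-0.03 to 0.02 in flanks), -0.11 to 0.15 in PEO1 at 16 µM, -0.36 to 0.02 in PEO4 at 16 µM, -0.14 to 0.24 at 32 µM, -0.17 to 0.22 in the response difference at 32 against 16 µM and -0.38 to 0.00 at the equal dose. MSH3 ranged from -0.10 to 0.08 in PEO1 at 16 µM and -0.03 to 0.15 between the PEO4 doses. PMS1 ranged from -0.01 to 0.22 in PEO4 at 32 µM, -0.13 to 0.12 between the doses and -0.07 to 0.02 in flanks between the untreated lines. MLH3 ranged from -0.12 to 0.08 in PEO4 at 16 µM and -0.03 to 0.17 at 32 µM, and PMS2 from -0.52 to 0.27 between the doses. PMS2 kept its sign but moved by over 1.5 times in the other comparisons of bodies, from 0.20 to 0.62 between the untreated lines, 0.07 to 0.52 in PEO1, -0.71 to -0.14 and -0.92 to -0.24 in PEO4 at 16 and 32 µM, and -1.25 to -0.51 and -1.05 to -0.47 in the response differences. The called genes between the untreated lines were 9 with the flank offset, as the offset removes what the body shares with its surroundings, and 5136 with only the groups compared. In flanks the GC correction gave 2900 higher and 3930 lower, against 4015 and 2888. The 1 gene called in PEO1 at 16 µM became 0 with a mean count of at least 200, with any overlap, with the replicate block, with only the groups compared and in limma, and 3 in DESeq2, and 0 or 1 with a library left out. DESeq2 called 1 in PEO4 at 32 µM, 1 in the response difference at 32 against 16 µM and 2 at the equal dose, where limma called 2. The causes were not tested. Counting error was below the spread between replicates, 7.99% against 37.7% in PMS2 and 5.53% against 18.1% in MSH6.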
